A study of Mus musculus with 9 samples.

Results

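The 7 matrix metalloproteinase genes Mmp2, Mmp8, Mmp9, Mmp12, Mmp13, Mmp14 and Mmp19 and the 3 inhibitor genes Timp1, Timp2 and Timp3 were followed in mouse liver by RNA sequencing. The rows were picked by gene symbol and Entrez identifier, from a list chosen with earlier results of these data known. All 10 were found among the 17846 genes listed for every mouse. The libraries came from 9 male wild-type C57/BL mice, 3 per group, with 1 library of bulk liver per mouse. Control mice received normal chow and stayed sedentary. NASH mice received the Ath diet, a chow with added cholesterol and cholate that gives steatohepatitis, for 20 weeks and also stayed sedentary. NASH+Exercise mice received the Ath diet for 12 weeks and were then trained on a treadmill for 8 weeks, starting at 20 weeks of age. The sample labels do not give the total length of the diet in this group. A difference in diet length from the NASH mice could therefore not be told apart from training. No mouse carried a transgene or a gene deletion, there was no trained group on normal chow, and all livers were taken after an overnight fast. The depth was 20085976 to 22495408 estimated counts per mouse.

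Matrix metalloproteinases (MMPs) are zinc-dependent endopeptidases that cleave collagens, elastin, laminins and other matrix proteins. Most are secreted as inactive precursors, which plasmin, other proteases or a membrane-type MMP open at the cell surface. The tissue inhibitors of metalloproteinases (TIMPs) bind the active site and block it. In injured liver, macrophages, neutrophils and activated stellate cells are the known sources of most of these proteins, and TIMP1 is known for protecting newly laid collagen from degradation. The measurements below are of messenger RNA, so they carry no information on activation or inhibition of the enzymes.

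Where mice are compared, expression is given in CPM, the counts scaled to library sizes after TMM normalization. It is given in the deposited TPM, which is scaled by library and by transcript length, where different genes are set against each other. A gene was called at an edgeR adjusted p under 0.05 together with a log2 fold change above 1 in size, and 13619 genes were tested, among them all 10 genes of the family. Mmp8, Mmp12, Mmp13 and Timp1 had fewer than 10 counts in every Control mouse, so they passed the filter on low counts through the groups on the Ath diet. Mmp9, at 9 counts in Control replicate 3, did not reach the filter in all Control mice and passed in the same way. So did called genes of the lists below, among them Mmp7, Mmp27, Vcan, Adam12, Runx1 and Plat. Counts over the 10 genes and over these lists are therefore descriptions. In bulk liver, fewer cells of a type and less RNA per cell cannot be told apart.

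NASH replicate 19 stood apart within its group, with the highest level of 7 of the 10 genes and the lowest level of 0. NASH+Exercise replicate 18 was lowest in its group for 6 genes, and NASH+Exercise replicate 8 was highest for 5. Values that change a call without one of these mice are given with the gene concerned.

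Mmp13, Mmp12, Mmp8 and Timp1 are shown by sequence because they were at or close to 0 in Control liver and were called higher in both groups on the Ath diet. The 250 bases before the transcription start were taken from RefSeq promoters of GRCm38.p6, all on the plus strand, where capitals mark the AP-1 element (TGANTCA) and the TATA box (TATAAA), both searched on both strands. Mmp13 (chr9:7272264-7272513) holds an AP-1 element whose first base is 35 bases before the start and a TATA box 16 bases before it. Mmp12 has 2 annotated starts, and the one shown (chr9:7347124-7347373) lies inside the gene and has an AP-1 element 44 bases before it. The window of the other start (chr9:7344147-7344396), at the outer end of the gene, holds neither motif. The windows of Mmp8 (chr9:7558179-7558428) and Timp1 (chrX:20869916-20870165) hold neither motif in full before the start. The bases after the Mmp8 start were not found in a GENCODE transcript of the gene, unlike those of the other genes shown, so its start is less certain.

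Mmp13: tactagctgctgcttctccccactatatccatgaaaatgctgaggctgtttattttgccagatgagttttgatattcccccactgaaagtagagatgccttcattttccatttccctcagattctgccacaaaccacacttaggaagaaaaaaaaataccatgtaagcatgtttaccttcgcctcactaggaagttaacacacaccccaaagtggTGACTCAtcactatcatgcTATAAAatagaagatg

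Mmp12: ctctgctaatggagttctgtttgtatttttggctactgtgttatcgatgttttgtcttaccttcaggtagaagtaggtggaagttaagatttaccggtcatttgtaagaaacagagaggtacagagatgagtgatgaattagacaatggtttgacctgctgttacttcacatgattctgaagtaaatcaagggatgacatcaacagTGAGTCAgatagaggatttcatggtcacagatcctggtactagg

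Mmp8: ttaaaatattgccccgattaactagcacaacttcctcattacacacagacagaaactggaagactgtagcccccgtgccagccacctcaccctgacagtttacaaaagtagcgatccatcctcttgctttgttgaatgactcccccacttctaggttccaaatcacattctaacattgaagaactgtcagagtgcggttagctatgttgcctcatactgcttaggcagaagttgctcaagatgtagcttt

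Timp1: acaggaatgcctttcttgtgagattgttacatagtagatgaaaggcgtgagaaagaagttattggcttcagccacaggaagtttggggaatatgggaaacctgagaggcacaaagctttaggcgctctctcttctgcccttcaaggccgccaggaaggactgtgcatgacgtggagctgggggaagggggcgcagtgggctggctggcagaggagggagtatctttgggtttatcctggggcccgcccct

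RefSeq promoters were found for 7 of the 10 genes and not for Mmp2, Mmp9 and Mmp19. The windows ran from 250 bases before to 50 bases after the start, and the 7 genes had 8 of them, 2 for Mmp12. The AP-1 element was found in 2 of the 8, against 7.81% of the 32851 windows of all genes. The TATA box was found in 3 of 8 against 13.6% of windows, with 2 of these 3 matches reaching past the start. The ETS motif AGGAAG, which overlaps neither of the others, was found in 6 of 8 against 35.4%. A match describes the letters of the window and not a bound site.

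In the first comparison, which asks what the Ath diet did to these genes, 7 of the 10 rose in NASH liver over Control liver. They were the macrophage elastase Mmp12, the collagenases Mmp8 and Mmp13, the gelatinases Mmp2 and Mmp9, and the inhibitors Timp1 and Timp2. Among all genes tested 18.3% were called, 15.3% higher and 3.03% lower. The values of 9 of the 10 genes did not overlap between the groups and were higher in NASH, against 27.4% of all genes, and Mmp19 was the exception. The median log2 fold change was 1.94 over the 10 genes and 0.013 over all genes. With the library size alone as scaling, the median of all genes was 0.36 instead, and 7 of the 10 were again called higher.

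In the second comparison, which asks what treadmill training changed on the Ath diet, none of the 10 genes was called by edgeR between NASH+Exercise and NASH, against 0.14% of all genes. The fitted level was lower after training for 9 of the 10, against 54.9% of all genes, with Mmp19 as the exception. Mmp2, Mmp12, Mmp14, Timp1, Timp2 and Timp3 had an unadjusted p under 0.05 in the lower direction, 6 of 10 against 10.7% of all genes. Without NASH replicate 19, 3 of the 10 had an unadjusted p under 0.05, with Mmp2 and Timp1 lower and Mmp19 higher. DESeq2 called 0 of the 10 with all 9 mice and 1, Timp1, with the 6 mice compared. Among all genes it called 174 with 9 mice and 204 with 6 mice. The values of Mmp2, Mmp8, Mmp14, Timp1, Timp2 and Timp3 did not overlap between the groups and were lower after training, 6 of 10 against 14.9% of all genes. The median log2 fold change was -0.67 over the 10 genes and -0.033 over all genes.

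When trained mice on the Ath diet were compared with Control, 6 of the 10 genes were called higher and 0 lower, namely Mmp2, Mmp8, Mmp9, Mmp12, Mmp13 and Timp1. Among all genes 13.5% were called, 10.4% higher and 3.07% lower. The same 6 genes did not overlap between the groups, against 21.5% of all genes. The comparisons share mice, the Control mice in this one and the first, and the NASH mice in the first and the second.

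**Figure D1:**
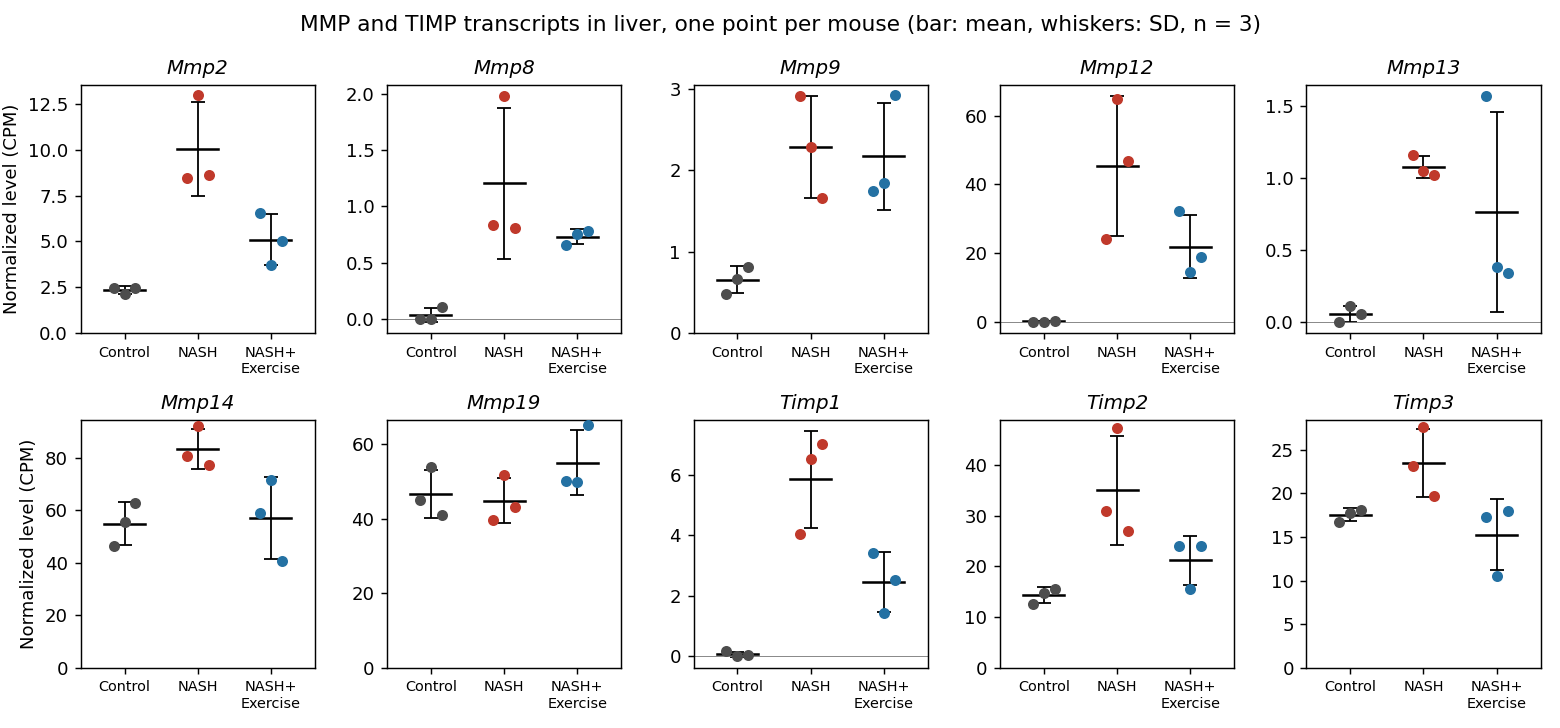
Level of each MMP and TIMP gene in each of the 9 mice, in CPM on a linear axis of its own for each gene. Points are mice, bars are means and whiskers are the SD over 3 mice, and Mmp12 and Timp1 lie near 0 in Control and far above it in both groups on the Ath diet, while Mmp19 overlaps across all 3 groups.

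Mmp12 (Entrez 17381, chr9:7344397-7360461), the macrophage metalloelastase, had the highest fitted fold change of the 10 genes in NASH over Control, although that of Timp1 was above it without Control replicate 3. It was at 0.215, 0.167 and 0.357 CPM in the Control mice 3, 4 and 29. It was at 24.2, 64.8 and 46.8 CPM in the NASH mice 5, 19 and 20, and at 32.2, 14.7 and 18.8 CPM in the NASH+Exercise mice 8, 18 and 22. Every mouse on the Ath diet was above every Control mouse, while trained mouse 8 lay above NASH mouse 5, so the groups on the diet overlapped. From 14 counts summed over the Control mice and 3355 over the NASH mice, the ratio of NASH to Control was 184, with a 95% exact counting interval of 109 to 336 (edgeR adjusted p = 1.91e-05). The ratio of NASH+Exercise to Control was 89.2, with an interval of 53.0 to 164 (edgeR adjusted p = 7.91e-05). The counting intervals cover counting error only and not the spread between mice. Training against NASH gave a log2 fold change of -1.05 ± 0.36 (SE), with an edgeR adjusted p of 0.236 and a 95% interval of -1.86 to -0.23. It was -0.67 without NASH replicate 19.

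The collagenases Mmp13 and Mmp8 cut fibrillar collagen. Mmp13 (Entrez 17386, chr9:7272514-7283333), the main interstitial collagenase of rodents, was at 0, 0.111 and 0.051 CPM in Control, at 1.16, 1.05 and 1.02 CPM in NASH, and at 1.57, 0.378 and 0.341 CPM in NASH+Exercise. The NASH mice lay close together, whereas trained mouse 8 was above all NASH mice and trained mice 18 and 22 were below them. From 3 counts in Control, the ratio was 20.2 for NASH, with a counting interval of 6.66 to 99.9 (edgeR adjusted p = 0.00333). It was 14.8 for NASH+Exercise, with an interval of 4.78 to 74.1 (edgeR adjusted p = 0.011). The trained mice differed from NASH by -0.47 ± 0.55 on the log2 scale (edgeR adjusted p = 0.731). This was -1.56 without NASH+Exercise replicate 8, -0.15 without replicate 18 and -0.13 without replicate 22 of that group.

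Mmp8 (Entrez 17394, chr9:7558429-7568486), the neutrophil collagenase, was at 0, 0 and 0.102 CPM in Control. It was at 0.831, 1.98 and 0.807 CPM in NASH and at 0.655, 0.755 and 0.78 CPM in NASH+Exercise. The trained mice lay just under the lowest NASH mouse, and NASH mouse 19 was far above the rest. From 2 counts in Control, the ratio was 34.5 for NASH, with a counting interval of 9.27 to 289 (edgeR adjusted p = 0.000754). For NASH+Exercise it was 20.4, with an interval of 5.35 to 174 (edgeR adjusted p = 0.00412). The fitted difference between the groups on the diet was -0.73 ± 0.47 on the log2 scale, and it missed the threshold (edgeR adjusted p = 0.491). Without NASH replicate 19 it was -0.15.

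The gelatinases Mmp2 and Mmp9 digest denatured collagen and basement membrane collagen. Mmp2 (Entrez 17390, chr8:92827290-92853421), which fibroblasts and stellate cells are known to make, was at 2.47, 2.11 and 2.45 CPM in Control, at 8.48, 13.0 and 8.63 CPM in NASH, and at 6.55, 3.73 and 5.02 CPM in NASH+Exercise. The 3 groups did not overlap, with the trained mice between Control and NASH. Mmp2 rose by 2.096 ± 0.26 on the log2 scale in NASH over Control, a fold of 4.27 (edgeR adjusted p = 0.000152). It was also higher in NASH+Exercise than in Control, by 1.12 ± 0.26 (edgeR adjusted p = 0.0094), a value that fell under the fold threshold, to 0.90, without NASH+Exercise replicate 8. Training against NASH gave -0.98 ± 0.24, with a 95% interval of -1.50 to -0.44 and an edgeR adjusted p of 0.131.

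Mmp9 (Entrez 17395, chr2:164940326-164955850) is known from neutrophils and macrophages. It was at 0.483, 0.667 and 0.816 CPM in Control, at 2.91, 2.29 and 1.66 CPM in NASH, and at 1.75, 1.84 and 2.92 CPM in NASH+Exercise. The mice on the diet spanned the same range with and without training and all lay above Control. The log2 fold change was 1.79 ± 0.35 for NASH (edgeR adjusted p = 0.0025) and 1.71 ± 0.35 for NASH+Exercise over Control (edgeR adjusted p = 0.00471). Between trained and sedentary mice on the diet it was -0.078 ± 0.30, with a 95% interval of -0.75 to 0.60, and its sign turned when NASH replicate 5, NASH+Exercise replicate 8 or NASH+Exercise replicate 18 was left out. Whether the responses of Mmp2 and Mmp9 to training differ was not tested.

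Mmp14 (Entrez 17387, chr14:54431598-54442456) encodes the membrane-type enzyme that, together with TIMP2, activates the precursor of MMP2 at the cell surface. It was at 46.4, 55.6 and 62.7 CPM in Control, at 80.5, 91.9 and 77.3 CPM in NASH, and at 59.0, 71.6 and 40.8 CPM in NASH+Exercise. NASH lay above both other groups without overlap, and the trained mice overlapped Control. The log2 fold change of NASH over Control was 0.60 ± 0.19, with an edgeR adjusted p of 0.0332 but below the fold threshold, so the gene was not called. On the log2(TPM + 0.1) scale it was 1.04 and passed, on a scale where the median of all genes was 0.44. The difference of trained from NASH mice was -0.54 ± 0.19 on the log2 scale (edgeR adjusted p = 0.235), or -0.35 without NASH+Exercise replicate 22, and NASH+Exercise against Control gave 0.057 ± 0.19 (edgeR adjusted p = 0.869).

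Mmp19 (Entrez 58223, chr10:128790910-128800827), which cleaves basement membrane proteins, did not pass the test in any comparison. It was at 45.1, 53.8 and 41.0 CPM in Control, at 39.8, 51.6 and 43.1 CPM in NASH, and at 50.1, 49.8 and 65.2 CPM in NASH+Exercise, so all 3 groups overlapped. The log2 fold change of NASH over Control was -0.056 ± 0.16 after TMM and turned to 0.31 with the library size alone and 0.38 on log2(TPM + 0.1). Training against NASH gave 0.30 ± 0.16 (edgeR adjusted p = 0.397), which turned to -0.010 on log2(TPM + 0.1). NASH+Exercise against Control gave 0.24 ± 0.16 (edgeR adjusted p = 0.306). The exons of Mmp19 share 789 bases with Tmem198b on the opposite strand. Since strand use in the counting is not given in the sources used here, reads of the pair cannot be told apart, and Tmem198b was listed at 5.22 to 8.45 CPM.

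Among the inhibitors, Timp1 (Entrez 21857, chrX:20870166-20874737), the TIMP that inflammation and fibrosis are known to induce, was nearly absent from Control liver, at 0.161, 0 and 0.051 CPM. It was at 4.03, 6.52 and 7.01 CPM in NASH and at 3.40, 1.42 and 2.54 CPM in NASH+Exercise. The 3 groups did not overlap, and all trained mice were below all NASH mice. From 4 counts in Control, the ratio was 82.4 for NASH, with a counting interval of 31.9 to 304 (edgeR adjusted p = 3.51e-05). For NASH+Exercise it was 34.8, with an interval of 13.3 to 129 (edgeR adjusted p = 0.000302). Training against NASH gave -1.25 ± 0.38 on the log2 scale, a fold of 0.42, with a 95% interval of -2.08 to -0.42. This passed the fold threshold but not the test (edgeR adjusted p = 0.179), and over the alternatives the adjusted p ranged from 0.0225 to 0.442. Timp1 lies inside Syn1 on the opposite strand, with 0 shared exon bases in GENCODE, and Syn1 was at 0.51 to 2.14 CPM.

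Timp2 (Entrez 21858, chr11:118301061-118355411) takes part in the activation of MMP2 as well as in its inhibition. It was at 12.6, 14.7 and 15.6 CPM in Control, at 30.8, 47.2 and 27.0 CPM in NASH, and at 24.01, 15.5 and 23.98 CPM in NASH+Exercise. All NASH mice lay above all others, and the trained mice overlapped Control through mouse 18. Timp2 rose by 1.29 ± 0.23 on the log2 scale in NASH over Control (edgeR adjusted p = 0.00178), and by 0.99 without NASH replicate 19, just under the fold threshold. Training against NASH gave -0.73 ± 0.23 (edgeR adjusted p = 0.198), or -0.43 without NASH replicate 19, and NASH+Exercise against Control gave 0.57 ± 0.23 (edgeR adjusted p = 0.104).

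Timp3 (Entrez 21859, chr10:86300412-86349505) is bound to the matrix and also inhibits ADAM proteases such as the TNF-releasing ADAM17. It was at 16.7, 17.8 and 18.1 CPM in Control, at 23.1, 27.6 and 19.7 CPM in NASH, and at 17.2, 10.6 and 17.99 CPM in NASH+Exercise. NASH lay above both other groups without overlap, but no comparison passed the test. The log2 fold change was 0.42 ± 0.20 for NASH over Control (edgeR adjusted p = 0.121), -0.62 ± 0.20 for training against NASH (edgeR adjusted p = 0.198) and -0.20 ± 0.20 for NASH+Exercise against Control (edgeR adjusted p = 0.517). The first of these was 0.26 without NASH replicate 19, and the last was 0.0058 without NASH+Exercise replicate 18. Timp3 shares 1733 exon bases with Syn3 on the opposite strand, which was at 2.50 to 3.86 CPM, so reads of this pair cannot be told apart either.

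**Figure D2:**
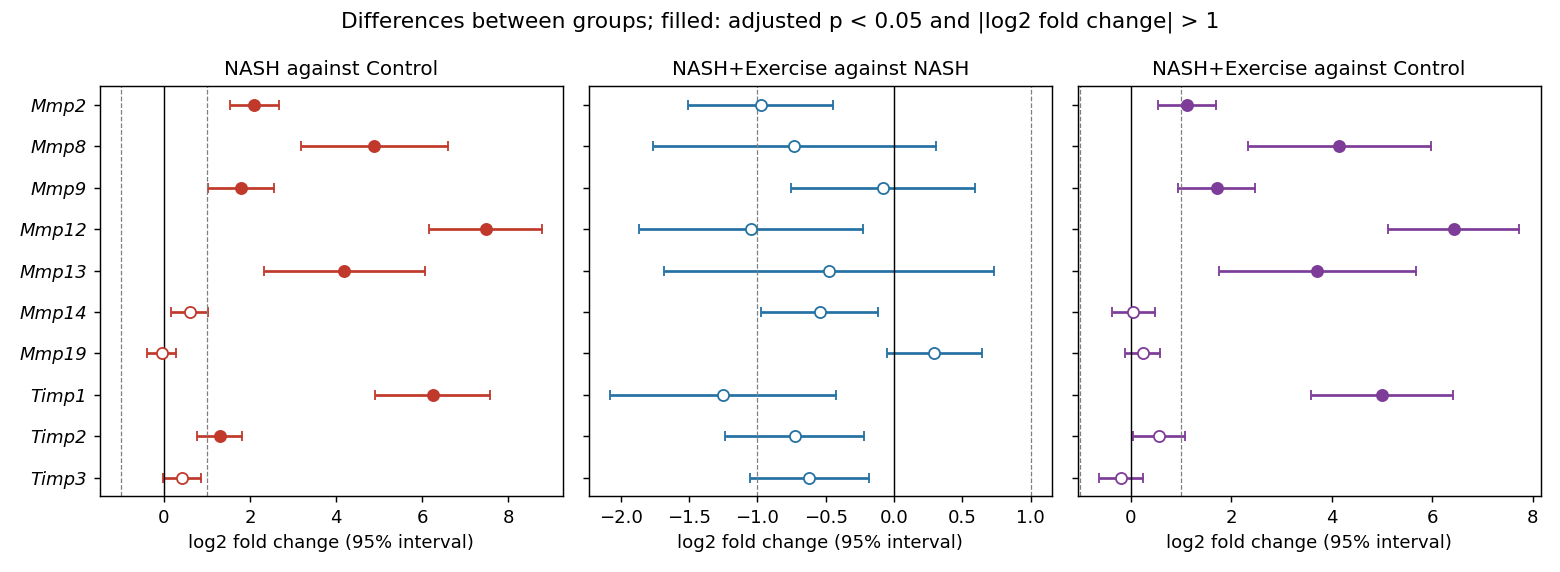
Log2 fold change of each MMP and TIMP gene from the edgeR fit of all 9 mice, with its 95% interval, for NASH against Control, NASH+Exercise against NASH and NASH+Exercise against Control. The intervals for training against NASH exclude 0 for Mmp2, Mmp12, Mmp14, Timp1, Timp2 and Timp3 before adjustment, and none of these genes was called.

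Levels of different genes can be compared on the TPM scale. In Control liver Mmp14, at 21.4 TPM, and Mmp19, at 20.5 TPM, led the order and overlapped each other. Timp2 at 5.82 TPM and Timp3 at 5.50 TPM followed, also overlapping. Mmp2 stood alone at 1.13 TPM, and the other 5 genes averaged 0.31 TPM or less, with each overlapping the next.

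In NASH liver the order changed at the top. Mmp12 led at a mean of 50.8 TPM, with an overlap with Mmp14 at 43.5 TPM. Mmp19 at 27.1 TPM, Timp2 at 19.4 TPM, Timp1 at 13.5 TPM and Timp3 at 9.99 TPM each overlapped the next gene, the last of them Mmp2 at 6.56 TPM. Mmp9 followed apart at 1.43 TPM and overlapped Mmp8 at 1.003 TPM, which overlapped Mmp13 at 0.80 TPM. In NASH+Exercise liver Mmp19, Mmp14 and Mmp12 averaged 26.6, 24.4 and 20.2 TPM and overlapped, and Timp2 followed apart at 9.45 TPM.

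The 7 MMP genes together came to 43.5 ± 5.95 TPM (SD, n = 3) in Control and 131 ± 39.5 TPM in NASH, with 76.0 ± 16.2 TPM after training. Mmp12 made up 0.297 to 0.476% of this sum in the Control mice, 26.4 to 44.0% in the NASH mice and 18.5 to 34.4% in the trained mice. Mmp14 and Mmp19 made up nearly all of the Control sum, at 48.6% ± 5.15 and 47.6% ± 5.46. The share of Mmp19 was 21.0% ± 2.31 in NASH and 36.0% ± 8.13 in NASH+Exercise, without overlap between these groups. TPM is not scaled by TMM. On log2(TPM + 0.1) the median of all genes was 0.44 in NASH against Control and -0.33 in NASH+Exercise against NASH. The summed TPM of the MMPs, and of the TIMPs below, carry this shift when groups are compared.

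The 3 TIMP genes summed to 11.4 ± 2.03 TPM in Control and 43.0 ± 11.9 TPM in NASH, with 19.4 ± 6.41 TPM after training. Timp1 made up 0 to 2.62% of this sum in the Control mice, 25.9 to 41.2% in the NASH mice and 20.1 to 27.8% in the trained mice. Timp3 made up 46.8 to 49.3% in the Control mice, above the 21.2 to 27.2% in the NASH mice. The MMP sum over the TIMP sum was 3.73, 4.07 and 3.67 in the Control mice, 2.83, 3.10 and 3.21 in the NASH mice, and 3.65, 5.42 and 3.27 in the trained mice. All NASH mice were below all other mice in this ratio, and the trained mice were spread widely, with mouse 18 the highest of all. The ratio sums transcripts and is no measure of net proteolysis, and no test was made of these sums because the genes were chosen with earlier results known.

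**Figure D3:**
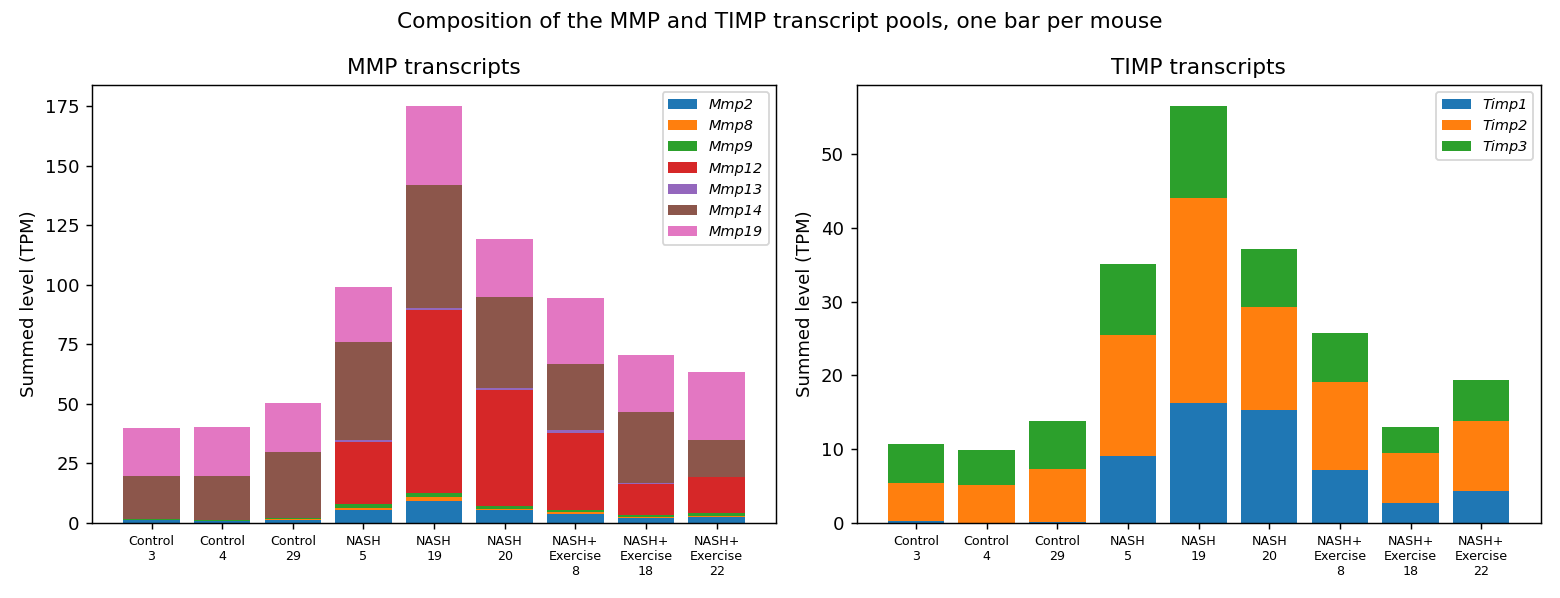
Summed TPM of the 7 MMP genes and of the 3 TIMP genes in each mouse, stacked by gene, with both axes starting at 0. All NASH bars are taller than all other bars in both panels, with NASH+Exercise replicate 8 close to NASH replicate 5 among the MMPs, and the segments of Mmp12 and Timp1 are hardly visible in Control. TPM is not scaled by TMM, so the heights carry the shift of all genes between groups.

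Mmp13, Mmp12 and Mmp8 lie in a cluster of 10 MMP genes on chromosome 9, from base 7272514 to base 7699585 of GRCm38.p6, a span of 427 kb. The files list 7 of the cluster's genes, and Mmp1a, Mmp1b and Mmp20 were not analysed here. Besides these 3, Mmp27 and Mmp7 were called higher in NASH than in Control. Mmp27 was at 0.322, 0.0556 and 0.255 CPM in Control, at 1.41, 3.42 and 2.04 CPM in NASH, and at 2.58, 2.93 and 1.90 CPM in NASH+Exercise. Its log2 fold change over Control was 3.40 ± 0.51 in NASH (edgeR adjusted p = 0.000545) and 3.50 ± 0.51 in NASH+Exercise (edgeR adjusted p = 0.000671), and training against NASH gave 0.11 ± 0.38 with overlapping groups. Mmp7, the matrilysin of epithelia, was at 13.0 CPM in NASH mouse 19 against 2.29 and 1.96 CPM in the other NASH mice, with Control at 0.161 to 0.445 CPM and the trained mice at 1.44, 0.567 and 0.877 CPM. Its log2 fold change in NASH over Control was 4.15 ± 0.87 (edgeR adjusted p = 0.00525), and 2.67 without NASH replicate 19, still called. The trained mice were below NASH without overlap, at -2.57 ± 0.74 (edgeR adjusted p = 0.177), or -1.11 without NASH replicate 19. Over Control they were at 1.58 ± 0.96 (edgeR adjusted p = 0.276), which was called without NASH replicate 19, at 1.56. Among the NASH mice, the summed cholangiocyte markers were also highest in mouse 19, at 95.1 CPM against 68.3 and 47.4 CPM in mice 5 and 20. The summed macrophage, neutrophil, and T and NK cell markers were highest in mouse 19 as well, the neutrophil sum only at 64.3 against 63.6 CPM in mouse 5. Its Kupffer cell, sinusoidal endothelial, B cell and hepatocyte sums were the lowest of the NASH mice. Its stellate cell and fibroblast sum lay between those of the others. Trained mouse 18 had a cholangiocyte sum of 74.3 CPM and the lowest Mmp7 of the trained mice. The part of these cell types in the Mmp7 result was not tested. Mmp3 and Mmp10, the stromelysins of the cluster, had at most 3 counts in any mouse.

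**Figure D4:**
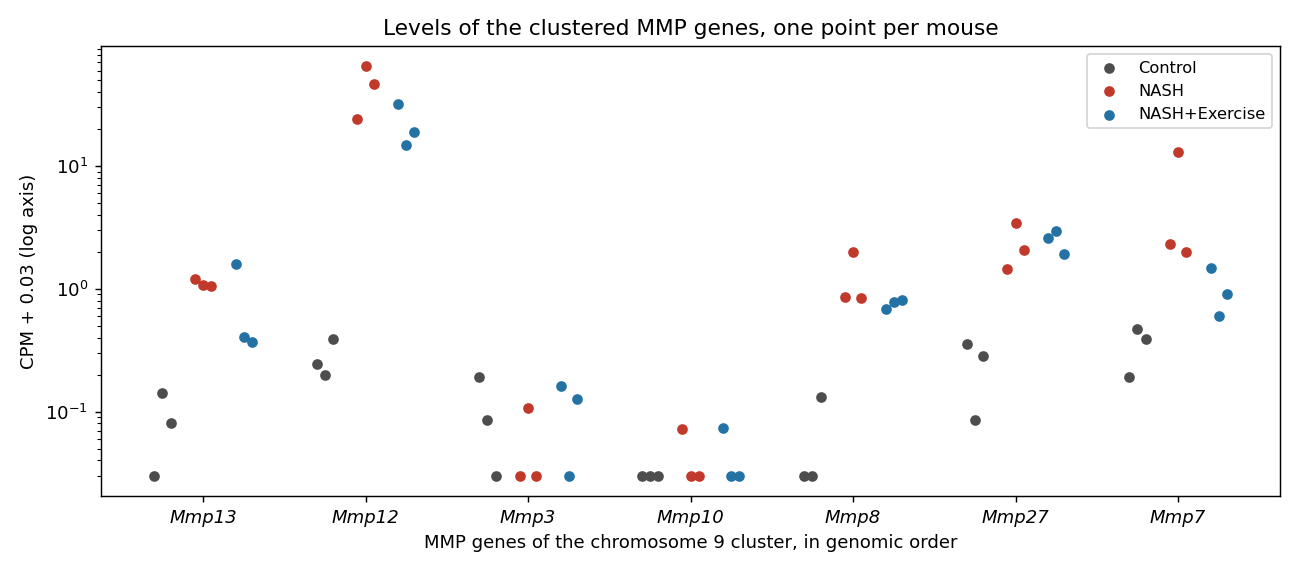
Level of the 7 listed genes of the chromosome 9 MMP cluster, 1 point per mouse, in CPM on a log axis after adding 0.03 so that values of 0 can be drawn, with the genes in their order along the chromosome. Mmp12 is the highest in both groups on the Ath diet, and Mmp3 and Mmp10 stay near 0 in all groups.

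Of the other MMP genes and Timp4, 14 of 17 listed were in the files and 8 were tested, of which 3 were called higher in NASH over Control, against 15.3% of all genes. These were Mmp7, Mmp27 and the membrane-anchored Mmp23, at 1.65 ± 0.35 on the log2 scale (edgeR adjusted p = 0.00409). In NASH+Exercise over Control only Mmp27 of the 8 was called, against 10.4% of all genes called higher. Without NASH replicate 19 Mmp7 was called as well. The membrane-type gene Mmp15, at 29.8 to 73.6 CPM, was not called in any comparison. Timp4 had 1 count over all 9 mice.

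Most of the substrates of the MMPs were higher on the diet. Of 21 genes for collagens, elastin, laminins, proteoglycans and other matrix proteins, 17 were called higher and 0 lower in NASH over Control, against 15.3% and 3.03% of all genes, with a median log2 fold change of 1.86. Col1a1, a chain of type I collagen, averaged 3.52 CPM in Control, 87.2 CPM in NASH and 36.7 CPM in NASH+Exercise. Its log2 fold change over Control was 4.63 ± 0.32 in NASH (edgeR adjusted p = 8.66e-06) and 3.38 ± 0.31 in NASH+Exercise (edgeR adjusted p = 6.68e-05). The proteoglycan Vcan, at 4.32 ± 0.64, and Col3a1, at 3.47 ± 0.29, were the next largest in NASH. After training 20 of the 21 were lower than in NASH, against 54.9% of all genes, and 15 did not overlap, against 14.9%. Of the 21, edgeR called 0 and DESeq2 on all 9 mice called 4 lower, where it called 109 of all genes lower. In NASH+Exercise over Control 10 of 21 were called higher, against 10.4% of all genes, with a range of 7 to 10 when single mice were left out, among them the matricellular Tnc at 2.78 ± 0.41.

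The plasminogen system, whose product plasmin opens MMP precursors, had 4 of 8 tested genes called higher and 1 lower in NASH over Control, against 15.3% and 3.03% of all genes. The activators Plat and Plau and the urokinase receptor Plaur rose by 3.10 ± 0.42, 3.07 ± 0.44 and 2.97 ± 0.39 on the log2 scale. In NASH+Exercise over Control they were at 1.81 ± 0.44, 2.30 ± 0.44 and 2.11 ± 0.40, with 4 of 8 called higher against 10.4% of all genes, and Plat was no longer called without Control replicate 3 or without NASH+Exercise replicate 8. The number called ranged from 2 to 5 with single mice left out, and was 2 with either of these mice left out.

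The related ADAM and ADAMTS proteases had 12 of 19 tested genes called higher and 0 lower in NASH over Control, where 15.3% of all genes were called higher. Adam8, a protease of myeloid cells, rose by 4.13 ± 0.57, Adamdec1 by 3.11 ± 0.45 and Adam12 by 2.56 ± 0.51. In NASH+Exercise over Control 4 of 19 were called higher, against 10.4% of all genes, with Adam8 at 3.14 ± 0.58 and Adamdec1 at 2.21 ± 0.46. Adam12, at 1.76 ± 0.54, missed the test when any mouse other than NASH replicates 19 and 20 was left out. It also missed the test with DESeq2 and with limma on log2 TPM. The number called in the list ranged from 2 to 6 with single mice left out, and was 2 without NASH+Exercise replicate 8.

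Among the matrix-degrading cathepsins 2 of 6 were called higher in NASH over Control, and among the other inhibitors and partners of MMPs 2 of 10, against 15.3% of all genes. The share of the inhibitors and partners was thus close to that of all genes. The cathepsins were Ctss, the cathepsin of antigen-presenting cells, at 3.93 ± 0.32, and the collagen-cleaving Ctsk, at 2.15 ± 0.45. In NASH+Exercise over Control Ctss alone of the 6 was called higher, at 3.13 ± 0.31, against 10.4% of all genes. The partners were Lcn2, whose product binds MMP9, and Cd44, a cell-surface anchor for MMP9, at 6.55 ± 0.50 and 2.62 ± 0.11. In NASH+Exercise they were at 6.26 ± 0.49 and 2.12 ± 0.11 over Control, and the syndecan Sdc1 was lower, at -1.08 ± 0.16, or -0.90 without Control replicate 4. This made 2 of 10 called higher and 1 lower, against 10.4% and 3.07% of all genes.

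Of 15 tested AP-1, ETS and RUNX factors, which are known to act on MMP promoters, 8 were called higher and 0 lower in each diet group over Control, against 15.3% of all genes higher in NASH and 10.4% in NASH+Exercise. In NASH these included Runx1 at 4.57 ± 0.29, Runx2 at 2.92 ± 0.39 and the myeloid ETS factor Spi1 at 2.91 ± 0.25. In NASH+Exercise they included Runx1 at 4.46 ± 0.29, Spi1 at 2.50 ± 0.25 and the AP-1 factor Batf at 2.50 ± 0.38. In all of these lists edgeR called 0 genes between NASH+Exercise and NASH. Unadjusted p under 0.05 in the lower direction were found for 2 of 8 other MMP genes, 16 of 21 substrates, 2 of 8 plasminogen system genes, 7 of 19 ADAM and ADAMTS proteases, 2 of 6 cathepsins, 1 of 10 partners and 4 of 15 factors, against the 10.7% of all genes. DESeq2 on all 9 mice called 1 other MMP gene, 1 protease and 4 substrates lower and 1 gene of the plasminogen system higher. Among all genes it called 109 lower and 65 higher.

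The genes whose course over the 9 mice was most like that of each family gene were found by the root mean square difference of centred log2 CPM, which is smaller for more similar courses. The nearest genes were Lcn2 and Gpnmb for Mmp12, at 0.71 and 0.72, against a median over all genes of 3.12. They were H2-M2 and Tnf for Timp1, at 0.47 and 0.50 against 2.30, and Itpr3 and Gpr153 for Mmp2, at 0.14 and 0.16 against 0.90. For Mmp8 they were Cxcr4 and Vcan, for Mmp9 Atp8b5 and Cdr2, and for Mmp13 Plcg2 and Spn. For Mmp14 they were Rcn2 and Lzts2, for Mmp19 Mlx and Rrp9, for Timp2 Ltbp3 and Pmepa1, and for Timp3 Ect2 and Ccdc126. The mice share libraries and normalization across genes, so the measure is a description.

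Markers of several cell types differed between the same groups. The summed level of 12 macrophage markers was 63.4 to 104 CPM in Control mice, 684 to 962 CPM in NASH mice and 480 to 604 CPM in trained mice, with 11 of 12 called higher in NASH over Control, against the 15.3% of all genes that applies to the other marker lists too. After training all 12 were lower than in NASH, against 54.9% of all genes, 7 of them without overlap, against 14.9%, and 0 called. The 11 neutrophil markers summed to 11.3 to 16.2 CPM, 56.5 to 64.3 CPM and 38.3 to 55.8 CPM, with 9 of 11 called higher in NASH, and Camp was at 0 in all Control mice. The 6 Kupffer cell markers summed to 66.4 to 120 CPM, 374 to 656 CPM and 447 to 535 CPM, with 5 called higher in NASH, and after training 3 were higher and 3 lower than in NASH. The 8 tested markers of T and NK cells were all called higher in NASH, with sums over the 9 markers listed of 3.54 to 5.66 CPM, 19 to 23.1 CPM and 13.2 to 15.6 CPM.

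Markers of stellate cells and fibroblasts overlapped between all groups in their sum, at 204 to 333 CPM in Control mice, 236 to 296 CPM in NASH mice and 244 to 292 CPM in trained mice, although 4 of 12 were called higher in NASH. Sinusoidal endothelial markers summed to 160 to 275 CPM, 232 to 361 CPM and 222 to 283 CPM, with 2 of 10 called. Of the cholangiocyte markers 2 of 5 were called higher in NASH, and of the B cell markers 0 of 5. The 10 hepatocyte markers, among them Alb, Apoa1 and Ttr, matched the labelled tissue, with sums of 135900 to 165400 CPM in Control mice, 81530 to 113000 CPM in NASH mice and 95070 to 126400 CPM in trained mice. In NASH 9 of the 10 were lower than in Control without overlap, against 22.2% of all genes, and 1 was called. The part of these cell types in the changes of the MMP and TIMP genes was not tested.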

How the data were processed

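Libraries were made from liver mRNA of 9 mice, 3 per group. The authors deposited for each gene and mouse an estimated count, which is not normalized, together with TPM and FPKM. FPKM was not used. The submitters' processing notes name HISAT2 2.1.0, Bowtie2 2.2.5, RSEM 1.2.8 and GRCm38.p6, without a role for each. The table of NASH replicate 5 also holds all 9 mice, and of 285536 values shared with the tables of the other mice none differed. A RefSeq table of GRCm38.p6 named 17728 of the 17846 genes and GENCODE named 13 more. Between 29.1 and 32.8% of the estimated counts were not whole and all were rounded.

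Counts were filtered with filterByExpr (10 counts, total 15) and normalized by TMM in edgeR 4.0.16 (R 4.3.3). The TMM factors ran from 0.80 to 0.976 for Control, from 1.09 to 1.23 for NASH and from 0.912 to 1.08 for trained mice. A robust quasi-likelihood model was fitted to all 9 mice with group as its only term, and p-values were adjusted by Benjamini-Hochberg over 13619 genes. The common biological coefficient of variation was 0.192. The residual degrees of freedom were 6. Genes were called at an adjusted p under 0.05 and a log2 fold change above 1 in size, the thresholds of the study. The study used DESeq2, which was run as an alternative (1.42.0), as was limma 3.58.1 on log2 TPM with a pseudocount of 0.1 or 1. Other scalings, filters and single mice left out were also tried. The scripts were tested on simulated counts.

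The 10 genes, the pathway lists and the marker lists were chosen with earlier results of these data known. The genes named are the 10, up to 3 called genes with the largest change per pathway list and comparison, and the 2 genes nearest in course to each of the 10. Mmp15, Mmp3, Mmp10 and Timp4 were added after their values were seen, to describe the rest of the family. Precision depends on the spread among 3 mice per group and also on depth for genes with few counts, such as Mmp8, Mmp13 and Timp1 in Control. The counts carry no molecular identifiers. An exact permutation test of 3 against 3 cannot go below p = 0.1, so none was used. Protein sequences were not used here.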

Additional observations from a re-analysis of the deposited data

How the results depend on the processing

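With single mice left out, 6 to 7 of the 10 genes were called in NASH against Control, 0 to 0 in NASH+Exercise against NASH and 5 to 6 in NASH+Exercise against Control. Leaving out NASH replicate 19 ended the call of Timp2, and leaving out NASH+Exercise replicate 8 that of Mmp2. Timp1 was the 1 gene called in NASH+Exercise against NASH with DESeq2 on 6 mice (-1.20, adjusted p = 0.0225) and with limma on log2(TPM + 1) (-1.40, adjusted p = 0.0486), within a range of adjusted p over its alternatives of 0.0225 to 0.442. The median of all genes in this comparison was -0.26 on log2(TPM + 1), a shift that the -1.40 carries. On log2(TPM + 1), which compresses low values, 2 genes were called in NASH+Exercise against Control and 5 in NASH against Control. The stricter filter, at 50 counts, left 8 of the 10 genes to test, without Mmp8 and Mmp13, of which 5 and 4 were called over Control.

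Signs turned for 4 genes. For Mmp19 in NASH against Control the log2 fold change was 0.31 with the library size alone and 0.38 and 0.37 on log2(TPM + 0.1) and log2(TPM + 1), and it ranged from -0.20 to 0.044 with single mice left out. For Mmp19 in NASH+Exercise against NASH it was -0.010 and -0.011 on these TPM scales. With single mice left out, Mmp9 ranged from -0.35 to 0.13 in that comparison, and Mmp14 from -0.14 to 0.25 and Timp3 from -0.33 to 0.0058 in NASH+Exercise against Control. Of 1238 fold changes of the named genes under the alternatives, 1188 kept their direction and whether the gene was called. This status joins the test and the fold, so an adjusted p could still cross 0.05, as for Mmp14 in NASH against Control, where it ranged from 0.0084 to 0.134.

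Over all genes, NASH+Exercise against NASH gave 19 calls, but 174 with DESeq2 on 9 mice, 204 with DESeq2 on 6 mice, 103 with limma on log2(TPM + 1) and 0 to 34 with single mice left out. NASH+Exercise against Control gave 1836 calls and 1068 with limma on log2(TPM + 1). In NASH against Control 2082 genes were called higher and 412 lower, against 2946 and 187 on log2(TPM + 0.1), where the median of all genes lay at 0.44. The cause of these differences was not tested. No paired analysis was possible because the mouse numbers differ in every group. Mmp8, Mmp13 and Timp1 had at most 4 counts summed over the Control mice, which limits their ratios to Control.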
